A study of Homo sapiens with 6 samples.

Results

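The genes described here are the transcription factors that drive epithelial-mesenchymal transition (EMT), the classical cadherins that mark its 2 ends, and fibronectin. The 10 genes were taken by symbol: SNAI1, SNAI2, ZEB1, ZEB2, TWIST1, TWIST2, CDH1, CDH2, CDH3 and FN1. All 10 were found once among the 20461 Ensembl entries of the deposited tables. Of them, 7 had enough counts to be among the 13645 genes tested, and SNAI2, TWIST2 and CDH1 did not.

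RNA sequencing was done on ARPE-19, a human retinal pigment epithelial (RPE) cell line. Cells of the control group carried a control lentivirus, while those of the PDZK1 group overexpressed, from a lentivirus, the membrane scaffold protein PDZK1. Both were transduced at a multiplicity of infection of 10 for 48 h, selected with 4 µg/ml puromycin and then held in 37.5 mM glucose for 48 h, so every library used here came from cells in high glucose. Each group had 3 libraries, and nothing in the labels says that they came from separate cultures, so p-values measure the spread between these libraries, which may be technical.

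In EMT, an epithelial cell loses the junctions and polarity that hold it in a sheet and takes on the motile form and matrix output of a mesenchymal cell. The SNAI and ZEB zinc-finger proteins repress CDH1 (E-cadherin) through E-box sequences in its promoter, and the TWIST basic helix-loop-helix proteins act with them and on CDH2 (N-cadherin). RPE cells differ from most epithelia in that they rely on P-cadherin (CDH3) and N-cadherin, and cultured RPE is known to drift towards a mesenchymal form in which FN1 is abundant.

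In both groups FN1 and CDH2 were abundant, ZEB2, TWIST1 and ZEB1 were at intermediate levels, and the other 5 genes were scarce or at 0. None of the 7 tested genes passed the threshold after PDZK1 overexpression. Among the tested genes FN1 had the largest fitted difference, at 1.42-fold higher in the PDZK1 group (95% interval 1.12 to 1.80), and CDH2 was 1.10-fold higher (1.04 to 1.15). CDH1, SNAI2 and TWIST2 were at or near 0 counts throughout.

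Library totals ran from 27970618 to 32804567 counts, and 14927 to 15095 genes were detected per library. The first principal component (35.5% of the variance) separated the groups, while along the second (22.2%) control replicate 3 lay at -21.6 and the other 2 controls at 11.3 and 10.2. The RPE markers RPE65, the retinoid isomerase, and TTR, or transthyretin, had 0 counts in all 6 libraries. That allows at most 0.0915 to 0.109 CPM (counts scaled to library size), covering counting error only. OTX2, a transcription factor of RPE, was read at 23.5 ± 3.35 FPKM in control and 23.0 ± 1.31 in PDZK1 (SD, n = 3). The RPE markers MITF (mean 8.30 FPKM in control and 7.72 in PDZK1), RDH5 (4.85 and 4.42), RLBP1 (2.24 and 2.44) and PMEL (1.12 and 0.939) were also read in every library. TYR had at most 2 counts in a library and DCT at most 4. LRAT and SERPINF1 were lower in PDZK1 without overlap (log2 fold change -0.821 and -0.827), and neither passed the threshold. Markers of other cell types (PTPRC and AIF1 of leukocytes and microglia, CRX of photoreceptors) had 0 counts in every library, and RCVRN had at most 3. The endothelial markers were not all absent. KDR had 107 to 155 counts per library, lower in PDZK1 without overlap (log2 fold change -0.47, edgeR adjusted p = 0.111). VWF had at most 22 counts and PECAM1 at most 6, and whether cells of the line itself made the KDR transcript was not tested. Of the 10 markers of other cells, 3 were tested and 0 passed in edgeR or in DESeq2, with 2 at an unadjusted p under 0.05 in edgeR, a level that 17.5% of all tested genes reached. The most abundant was CD68, a lysosomal protein of macrophages that other cells also make, at 78.3 ± 7.53 FPKM in control and 67.5 ± 0.913 in PDZK1 (log2 fold change -0.22, edgeR adjusted p = 0.134).

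The overexpressed gene was examined first, since it checks the labels. PDZK1 (ENSG00000174827, chromosome 1, 145670852 to 145708148, GRCh38) had counts of 19, 18 and 23 across the control libraries and of 3020, 2541 and 2828 across the PDZK1 libraries, each given in the order of replicates 1 to 3, as are all values below. Every PDZK1 library lay far above every control library. Its log2 fold change reached 7.03 ± 0.131 (SE), with an edgeR quasi-likelihood adjusted p of 8.16e-09.

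The levels of the set are best compared per length, as FPKM (fragments scaled by transcript length and library). In control, the mean FPKM was 79.5 for FN1, 70.9 for CDH2, 17.8 for ZEB2, 8.65 for TWIST1 and 4.61 for ZEB1. SNAI1 (0.198), CDH3 (0.139), TWIST2 (0.0411), CDH1 (0.00918) and SNAI2 (0) followed far below. The libraries of FN1 and CDH2 overlapped in control, as did those of SNAI1 and CDH3, so neither pair is ordered beyond its spread there. In the PDZK1 group the order of the first 5 was unchanged (113 for FN1, 78.2 for CDH2, 17.7 for ZEB2, 9.87 for TWIST1 and 5.23 for ZEB1 FPKM), and the FN1 libraries no longer overlapped those of CDH2.

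**Figure D1:**
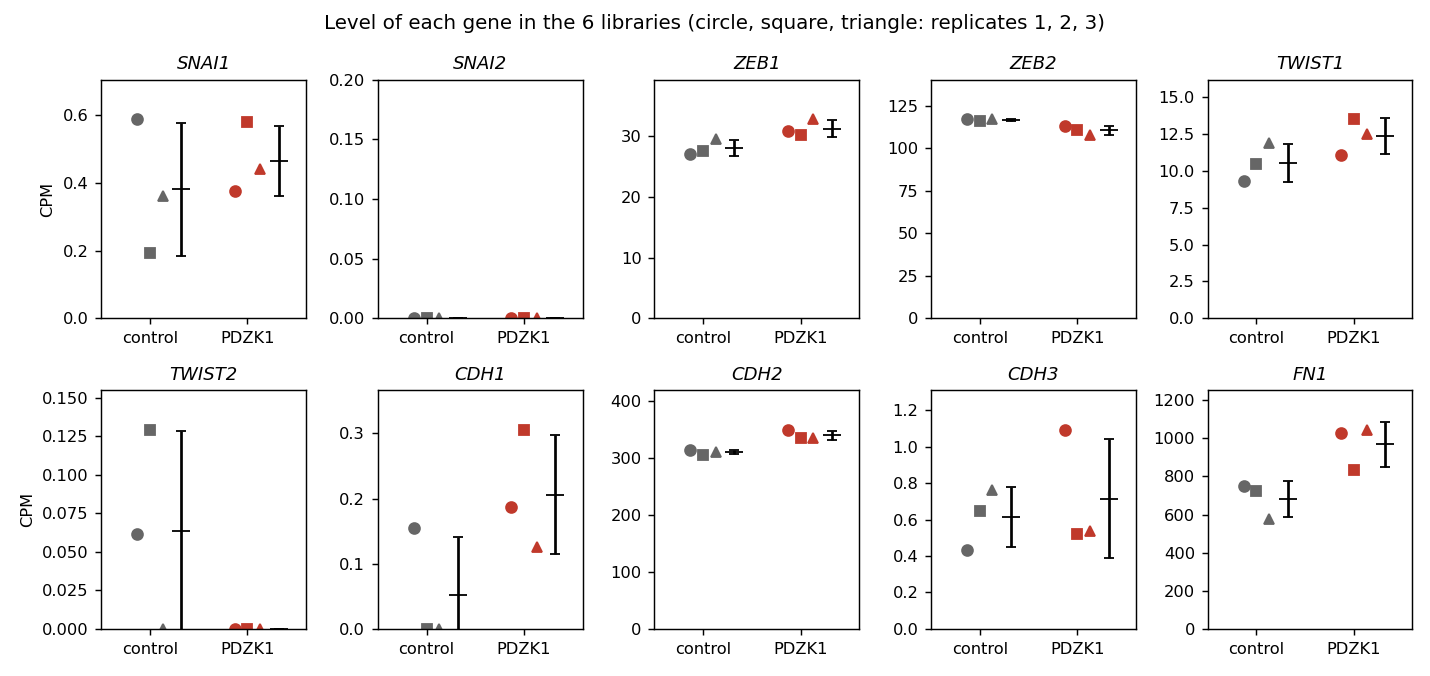
Level of each of the 10 genes in CPM (TMM-scaled library sizes, vertical axis, a separate scale from 0 for each gene) in the 3 control (grey) and 3 PDZK1 (red) libraries, with the mean and SD in black; lower ends of SD bars under 0 are not drawn. The FN1 libraries run from 575 to 748 CPM in control and from 834 to 1043 in PDZK1, while SNAI2 is at 0 in all 6.

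The SNAI factors were scarce. SNAI1 (chromosome 20, 49982999 to 49988886, plus strand), the founding EMT repressor, had 19, 6 and 10 counts in control and 12, 19 and 14 in PDZK1. The groups overlapped, and the highest count of each group was equal. SNAI1 gave a log2 fold change of 0.28 (95% interval -0.79 to 1.35, edgeR adjusted p = 0.825), an interval that still holds changes from 0.578-fold to 2.54-fold. It was -0.039 when control replicate 2 was left out, so SNAI1 has no direction here. SNAI2 (ENSG00000019549), the other member of the family, had 0 counts in all 6 libraries, which at these depths allows at most 0.0915 to 0.109 CPM per library.

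The ZEB factors made up most of the measured factor transcript. Of the summed FPKM of the 6 factors, ZEB2 took 57.0 ± 2.46% in control and 53.3 ± 5.11% in PDZK1 (SD, n = 3), and TWIST1 followed with 27.5% and 30.0%. ZEB1 (chromosome 10, 31318495 to 31529814, plus strand), a repressor of CDH1 and of the miR-200 family, had 27.1, 27.6 and 29.6 CPM in control and 30.9, 30.2 and 32.8 in PDZK1. All 3 PDZK1 libraries lay above all 3 control libraries, by a narrow margin between control replicate 3 and PDZK1 replicate 2. ZEB1 differed by 0.16 ± 0.061 on the log2 scale (SE; 95% interval 0.020 to 0.294), with an edgeR adjusted p of 0.216.

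ZEB2 (chromosome 2, 144364364 to 144524583, minus strand), the close paralogue of ZEB1, ran the other way. It had 117, 116 and 117 CPM in control and 113, 111 and 108 in PDZK1, with no overlap. The log2 fold change was -0.076 (95% interval -0.152 to 0.000298, edgeR adjusted p = 0.288), an interval that reaches down to 0.90-fold. On the FPKM scale the ZEB2 groups overlapped, at 17.5, 17.3 and 18.5 in control and 20.6, 16.8 and 15.6 in PDZK1. The ratio of the deposited FPKM to CPM for ZEB2 varied 1.26-fold between libraries, against 1.01-fold for CDH2 and 1.03-fold for FN1, so for ZEB2 the scale decides whether the groups overlap. Both ZEB genes share their region with antisense genes (ZEB1-AS1 and ZEB2-AS1), and whether counting used strand is not given in the sources used here.

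The start of ZEB1 is shown because ZEB1 and SNAI proteins bind the E-box CAGGTG, which was searched on both strands in RefSeq promoters of GRCh38.p14. The sequence below is the 250 bases before the first RefSeq start (chr10:31318167-31318416, plus strand), all outside the GENCODE gene body, with the 1 match in capitals. ZEB1 has 7 RefSeq windows; the third holds 2 matches and the other 5 none, and these 6 lie inside the gene body and are not shown.
ZEB1: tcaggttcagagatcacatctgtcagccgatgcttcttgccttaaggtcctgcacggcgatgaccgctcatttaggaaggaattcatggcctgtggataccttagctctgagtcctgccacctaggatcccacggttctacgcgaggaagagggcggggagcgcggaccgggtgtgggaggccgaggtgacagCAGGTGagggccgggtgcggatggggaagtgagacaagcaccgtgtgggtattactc
The same letters were found in 17.5% of 35116 promoter windows of this length, and the match describes the letters only.

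TWIST1 (chromosome 7, 19020991 to 19117672, minus strand), a basic helix-loop-helix factor of mesoderm and EMT, had 9.32, 10.5 and 11.9 CPM in control and 11.1, 13.5 and 12.5 in PDZK1. The groups overlapped, since PDZK1 replicate 1 lay below control replicate 3. For TWIST1 the log2 fold change was 0.23 (95% interval -0.039 to 0.493, edgeR adjusted p = 0.369). TWIST2 had 2, 4 and 0 counts in control and 0 in each PDZK1 library. With at most 4 counts in a library it was not tested (edgeR adjusted p = 0.454 with no count filter).

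Among cadherins, the cells made CDH2 and very little CDH1 or CDH3. CDH2 (chromosome 18, 27950966 to 28177446, minus strand), the N-cadherin of mesenchymal and neural cells, had 314, 306 and 311 CPM in control and 349, 335 and 336 in PDZK1. The groups did not overlap, and the replicates were tight, with coefficients of variation of 1.34% and 2.32%. The means were 310 ± 4.15 and 340 ± 7.89 CPM (SD, n = 3), which differ by 0.13 ± 0.034 on the log2 scale (SE; 95% interval 0.0555 to 0.208). With an edgeR adjusted p of 0.0681 CDH2 did not pass the threshold, although it did in DESeq2 (adjusted p = 0.0152), with library totals alone as the scaling (0.0419) and without control replicate 3 (0.0419), within a range of 0.0152 to 1.00 over 15 alternatives. The 1.00 came from the test against a 1.5-fold change, and the next highest was 0.249 (edgeR without PDZK1 replicate 1).

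CDH3 (chromosome 16, 68636189 to 68722616, plus strand), the P-cadherin of RPE junctions, had 14, 20 and 21 counts in control and 35, 17 and 17 in PDZK1. The groups overlapped, and PDZK1 replicate 1 alone stood high. CDH3 gave a log2 fold change of 0.23 (95% interval -0.71 to 1.17, edgeR adjusted p = 0.840) and was -0.21 without PDZK1 replicate 1, so CDH3 has no direction here. CDH1 (chromosome 16, 68737225 to 68835548, plus strand), the E-cadherin of most epithelia, had 5, 0 and 0 counts in control and 6, 10 and 4 in PDZK1. The groups overlapped between control replicate 1 and PDZK1 replicate 3, and with no count filter the edgeR adjusted p was 0.517.

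**Figure D2:**
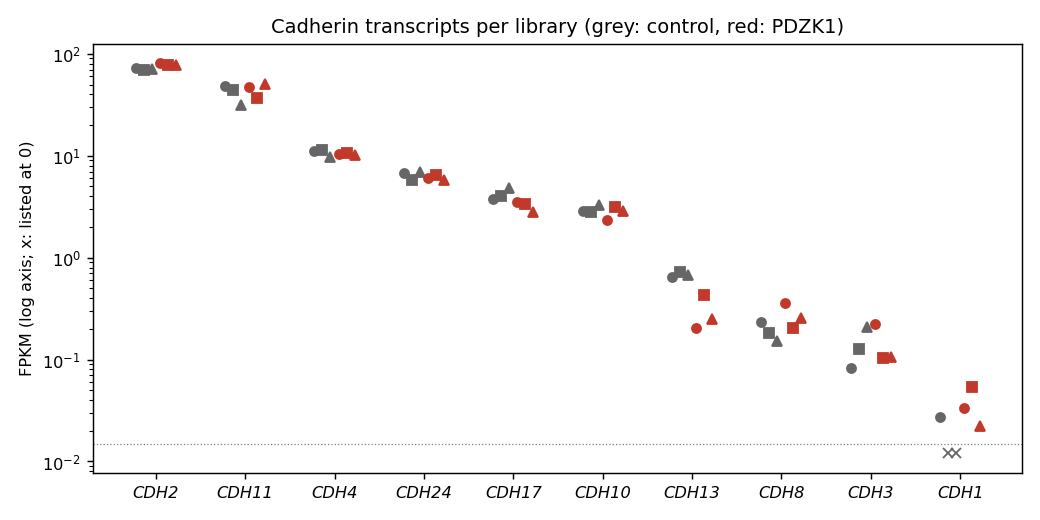
FPKM (vertical log axis) of the cadherins with a mean of at least 0.1 FPKM, and of CDH1, in the 3 control (grey) and 3 PDZK1 (red) libraries; circle, square and triangle are replicates 1, 2 and 3, and crosses are libraries listed at 0. CDH2 lies highest at 69.8 to 80.4 FPKM, and CDH1 lies lowest of those shown.

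Within the summed FPKM of 22 cadherins, CDH2 took 51.5 ± 3.21% in control and 53.6 ± 2.2% in PDZK1 (SD, n = 3). CDH11, the cadherin of osteoblasts and mesenchyme, came next with 30.0% and 30.5%, while CDH3 took 0.103% and 0.0976% and CDH1 0.00629% and 0.0254%. The log2 ratio of CDH2 to CDH3 FPKM was 9.76, 9.10 and 8.42 in control and 8.50, 9.54 and 9.52 in PDZK1. The ranges overlapped, and the difference of the means was 0.0959 (-0.0380 on CPM; two-sided exact permutation p = 0.90, where the smallest possible is 0.1). No log ratio of CDH2 to CDH1 could be taken, since CDH1 was listed at 0 in 2 control libraries. With 0.1 added to each FPKM it was 9.35 ± 0.185 in control and 9.17 ± 0.179 in PDZK1 (two-sided exact permutation p = 0.300, n = 3).

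FN1 (chromosome 2, 215360440 to 215436172, minus strand), the matrix glycoprotein fibronectin, showed the largest fitted difference of the 7 tested genes and also a wide spread. It had 748, 724 and 575 CPM in control and 1027, 834 and 1043 in PDZK1. All 3 PDZK1 libraries lay above all 3 control libraries, with control replicate 3 lowest and PDZK1 replicate 2 lowest of its group. The means were 682 ± 93.8 and 968 ± 117 CPM (SD, n = 3), with coefficients of variation of 13.8% and 12.0%. On the log2 scale FN1 differed by 0.505 ± 0.137 (SE; 95% interval 0.158 to 0.851), with an edgeR adjusted p of 0.141. Without control replicate 1, SNAI1 had the larger fitted value (0.745 against 0.576 for FN1). Without control replicate 3, the library that stood apart, the FN1 value was 0.395 (edgeR adjusted p = 0.199). DESeq2 on all 6 libraries gave an adjusted p of 0.0224, within a range of 0.0224 to 1.00 over 15 alternatives. The 1.00 came from the test against a 1.5-fold change, and the next highest was 0.323 (edgeR without PDZK1 replicate 3).

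The start of FN1 is shown because the gene is known for a cyclic AMP response element, TGACGTCA, searched on both strands. The 146 bases of the RefSeq window that lie before the GENCODE gene body (GRCh38.p14, chr2:215436173-215436318, minus strand) hold 1 match, in capitals.
FN1: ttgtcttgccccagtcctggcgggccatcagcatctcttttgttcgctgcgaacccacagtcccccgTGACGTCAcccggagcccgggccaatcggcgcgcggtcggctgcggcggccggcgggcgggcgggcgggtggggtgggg
The motif was found in 1.65% of 35116 promoter windows of 250 bases, longer than the stretch shown, and nothing about a factor can be read from the match.

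**Figure D3:**
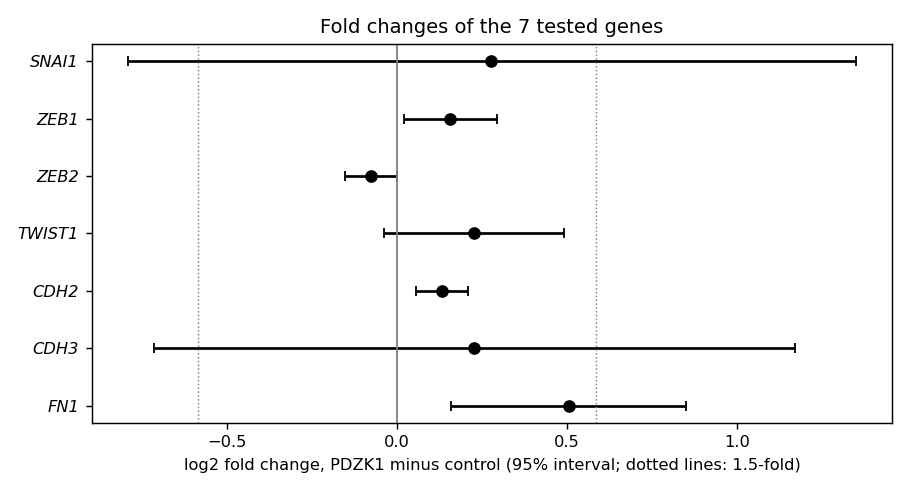
Log2 fold change (PDZK1 minus control, horizontal axis) of the 7 tested genes with the 95% interval of the edgeR model; dotted lines mark 1.5-fold in either direction. The intervals of CDH2, ZEB1 and FN1 lie above 0, those of SNAI1 and CDH3 span both dotted lines, and that of FN1 reaches past 1.5-fold.

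Set against all genes, 0 of the 7 tested members passed the threshold in edgeR, where 3.83% of the 13645 genes did (1.41% higher and 2.41% lower in PDZK1). At an unadjusted p under 0.05 there were 3 (CDH2, FN1 and ZEB1), against 17.5% of all genes, and DESeq2 called 2 (CDH2 and FN1), against 5.40% of the 15066 genes to which it gave an adjusted p. The groups did not overlap for 4 of the 7 (CDH2, FN1 and ZEB1 higher, ZEB2 lower), against 23.9% of all genes. The fitted change was above 0 for 6 of 7, against 6808 of 13645 genes. These 6 include SNAI1 and CDH3, which have no direction here. The median log2 fold change of the 7 was 0.23, the value of CDH3 itself, against -0.00026 over all genes.

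The surrounding genes were read from 9 lists. Over all of them, 117 of 165 genes were tested and 17 passed (14.5%), 6 higher and 11 lower, against 3.83% of all 13645 tested genes. That background share also belongs beside the count of each list below. The lists were chosen with earlier results of these data known, so their shares are a description and not a test of the lists. Left out 1 at a time, any library other than control replicate 3 left between 6 and 9 of these 17 past the threshold. ID3, COL5A2, THBS1, JUP and NECTIN3 stayed past it in all 6 such fits, and the other 12 lost the call in at least 1 of them.

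Among the 14 other EMT transcription factors, 11 were tested and 1 passed. KLF8, a Krüppel-like repressor of CDH1, had 38, 26 and 10 counts in control and 0, 4 and 0 in PDZK1 (edgeR adjusted p = 0.0348). This call rests on very few counts and was lost without control replicates 1 or 2 and PDZK1 replicates 1 or 3 (up to 0.15). SOX9, the most abundant of the list, was at 22.9 and 25.2 FPKM (adjusted p = 0.246). Of the 18 partners and corepressors of these factors, all were tested and 1 passed, the helix-loop-helix inhibitor ID3. ID3 had 69.5, 69.0 and 71.4 CPM in control and 93.6, 86.7 and 99.0 in PDZK1, with no overlap (log2 fold change 0.41, adjusted p = 0.00294).

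Of 28 epithelial genes, 16 were tested and 0 passed in edgeR, with 4 at an unadjusted p under 0.05 (17.5% of all genes). These 4 (ELF3, CRB3, PRSS8 and SPINT1) were all lower in PDZK1. They were also the 4 tested genes of the list whose groups did not overlap (23.9% of all genes). PRSS8 and SPINT1 had at most 16 counts in a library. Of the 16 tested, 6 had a fitted change above 0 and 10 below. DESeq2 called 1 (CLDN3, not in the edgeR test), where it called 5.40% of all genes, and 5 genes of the list (CLDN7, GRHL2, OVOL2, RAB25 and ST14) were at 0 counts in all libraries. The keratin KRT8 was the most abundant, at 577 ± 41.7 FPKM in control and 581 ± 27.3 in PDZK1. Of 28 mesenchymal genes, 22 were tested, 1 rose and 4 fell, with a list median of 0.091, while DESeq2 called 4 higher and 5 lower. COL5A2, a fibrillar collagen chain, had 71.6, 74.9 and 73.6 CPM in control and 40.8, 39.3 and 37.3 in PDZK1 (log2 fold change -0.91, adjusted p = 8.14e-05). TNC, a matrix glycoprotein, fell by 1.06 on the log2 scale (adjusted p = 0.0100), SPARC, a collagen-binding protein, by 0.23 (0.0292), and LOX, a collagen crosslinking enzyme, by 0.19 (0.0426). THBS1, the matricellular protein thrombospondin-1, rose from 289 ± 16.0 to 391 ± 17.1 CPM (adjusted p = 0.00138). VIM, the intermediate filament vimentin and the most abundant of the list, was at 2219 ± 228 FPKM in control and 2049 ± 114 in PDZK1 (log2 fold change -0.13, adjusted p = 0.443).

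Of 17 genes of the cadherin and nectin adhesion complexes, 15 were tested, 2 rose and 2 fell. JUP, or plakoglobin, which links cadherins to the cytoskeleton, had 37.9, 40.5 and 38.3 CPM in control and 25.7, 26.4 and 25.4 in PDZK1 (log2 fold change -0.59, adjusted p = 0.000531). AFDN, the nectin-binding adaptor afadin, fell from 339 ± 1.06 to 300 ± 1.73 CPM (adjusted p = 0.015), but on the deposited FPKM its groups overlapped and the call was lost (log2 difference -0.0835, limma adjusted p = 0.827, within a range of 1.82e-05 to 1.00 over 15 alternatives). For AFDN too the 1.00 came from the test against a 1.5-fold change, and the next highest was 0.849 (limma with no filter). NECTIN3, an adhesion receptor, rose from 61.4 ± 0.620 to 76.7 ± 3.05 CPM (adjusted p = 0.00513). PLEKHA7, a junction protein that binds p120-catenin, had 52.7, 50.6 and 69.8 CPM in control and 106, 111 and 98.4 in PDZK1 (log2 fold change 0.87, adjusted p = 0.0276, with losses of the call up to 0.0988 when a library other than control replicate 3 was left out). CTNNA1, the cadherin-binding α-catenin and the most abundant of the list, was at 124 and 118 FPKM (adjusted p = 0.430).

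Of 19 other cadherins, 7 were tested and 1 passed. CDH13, a cadherin without a cytoplasmic tail, had 4.06, 5.05 and 5.29 CPM in control and 1.75, 2.96 and 2.18 in PDZK1 (log2 fold change -1.06, adjusted p = 0.0303). CDH11, the most abundant of them, was at 41.6 ± 8.79 FPKM in control and 44.7 ± 7.37 in PDZK1 (adjusted p = 0.867). Of 19 genes that bind or assemble fibronectin, 17 were tested, 2 rose and 3 fell. The integrin ITGA4 rose from 59.9 ± 6.30 to 78.1 ± 2.26 CPM (adjusted p = 0.0218), and LTBP1, which stores latent TGF-β in the matrix, rose from 16.3 ± 0.478 to 21.1 ± 1.83 CPM (0.0370). FBN1, or fibrillin-1, fell by 0.41 on the log2 scale (0.0351), and SDC4, a heparan sulfate coreceptor of fibronectin, fell by 0.17 (0.050, just under the threshold). FBLN1, or fibulin-1, had 25, 35 and 35 counts in control and 0, 7 and 5 in PDZK1 (0.0322), too few for a firm size. ITGB1, the integrin β1 subunit of fibronectin receptors, was at 444 and 451 FPKM (adjusted p = 0.912). In a bulk sample, fewer cells of a type and less RNA per cell cannot be told apart.

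**Figure D4:**
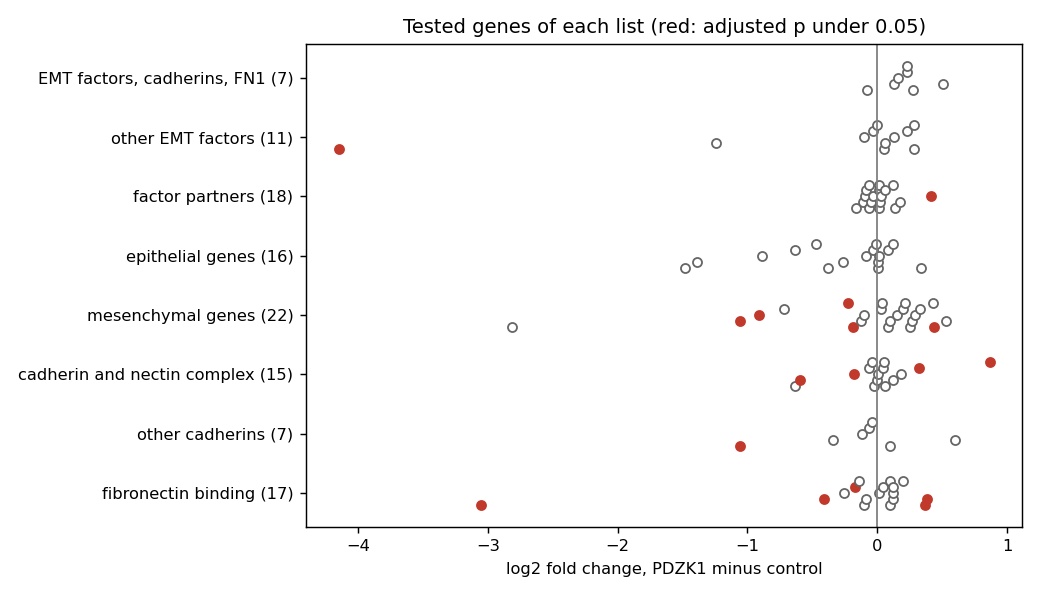
Log2 fold change (PDZK1 minus control, horizontal axis) of the tested genes of the set and of 7 of the lists, 1 point per gene, with the number tested in brackets; red points have an edgeR adjusted p under 0.05. The set itself holds no red point, and the lists of junction, matrix and fibronectin-binding genes hold red points on both sides of 0.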

How the data were processed

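RNA from 3 control and 3 PDZK1 samples of ARPE-19, as grouped by the labels, was sequenced. The submitters' processing notes name fastp 0.20.1, HISAT2 2.2.1 and GRCh38; the counting program, annotation and strandedness are not given in the sources used here. The counts deposited by the authors are whole numbers, unscaled for depth, and the FPKM deposited by the authors scale fragments by transcript length and library. In each table, 3 columns of per-sample values match none of the samples and were not used. Assembled loci (853 of 21314 entries, 0.519% to 0.536% of counts) were left out, a choice made after the tables were seen.

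Counts were tested with edgeR 4.0.16 in R 4.3.3 (filterByExpr, TMM, robust quasi-likelihood test, no covariate, Benjamini-Hochberg over 13645 genes, threshold 0.05), after a test on simulated data. CPM used TMM library sizes, and levels between genes were compared as FPKM. Ratios were tested with a two-sided exact permutation test. Alternatives were DESeq2 1.42.0, other scalings, no count filter, limma 3.58.1 on log2 FPKM (pseudocounts 1 and 0.1, mean FPKM of at least 0.5 or no filter), a replicate block, a test against a 1.5-fold change and each library left out. Coordinates are from GENCODE 29 on GRCh38, 1-based, and promoters from RefSeq GRCh38.p14, which had entries for 5 of the 10 genes.

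The genes and lists were chosen with earlier results of these data known. Named are all 10 genes and PDZK1, in each list every gene past the threshold and the one with the highest mean FPKM, and markers of other cells at 3 counts or fewer in every library, of which 1 is not reported here; others were named after their values were seen. The lists were other EMT factors, factor partners, epithelial and mesenchymal genes, cadherin complexes, other cadherins, fibronectin binding, RPE markers and other cell types. Of the 13 RPE markers, 9 were tested and 0 passed in edgeR or DESeq2. In edgeR, 1 of them (LRAT) had an unadjusted p under 0.05, against 17.5% of all tested genes.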

Additional observations from a re-analysis of the deposited data

How the results depend on the processing

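The number of set members past the threshold was 0 in edgeR, 2 in DESeq2 and 1 with library totals alone, and ran from 0 to 1 with a library left out, where the 1 came without control replicate 3. The number of list genes past it was 17 in edgeR, 6 with limma on log2 FPKM at a pseudocount of 1, 6 at 0.1 and 9 with no filter (8 of them among the 17), 1 against a 1.5-fold change and 6 to 25 with a library left out. DESeq2 called 9 mesenchymal genes against 5 in edgeR. Over all genes the count was 522, with 814 in DESeq2, 191, 187 and 184 in those limma fits, 42 against a 1.5-fold change and 181 to 875 with a library left out.

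With the replicate number as a replicate block, 0 set members, 5 list genes and 163 genes in all passed. Same-numbered libraries did not deviate together (correlations -0.0409, -0.0911 and -0.158), so no pairing by number was seen. Correlations between single libraries cannot settle whether some shared a culture or batch, which the labels do not say. The log2 ratio of CDH2 to CDH3 differed by 0.0959; it was -0.0380 on CPM and ran from -0.240 to 0.440 with a library left out (exact p of 0.50 to 1.00 over all alternatives; 0.0959 with a replicate block). The ratio of CDH2 to CDH1 was computed only with 0.1 added. With a library left out, the log2 fold change of SNAI1 ran from -0.0394 (without control replicate 2) to 0.745 and that of CDH3 from -0.211 (without PDZK1 replicate 1) to 0.413. PDZK1 itself passed in all 15 alternatives (4.92 to 7.21). Depth limits SNAI1, CDH3 and the untested genes.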

Other observations

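The counts per library of 3 list genes are given here, and they were picked after their values were seen. CLDN3, a tight junction claudin, had 5, 11 and 24 counts in control replicates 1 to 3 and 0 in each PDZK1 library. It was at least 4.94-fold lower against a floor of 3 counts per library (at least 2.74-fold without control replicate 3, which holds 24 of the 40 control counts) and was too low for the main filter; with no count filter its edgeR adjusted p was 0.0475, and DESeq2 gave 0.00224. KRT19, an epithelial keratin, had 3, 0 and 0 counts in control and 8, 0 and 18 in PDZK1 (edgeR adjusted p = 0.388 with no count filter).

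BEST1, the chloride channel bestrophin-1 of RPE, had 11459 counts in PDZK1 replicate 1 and 124 to 181 in the other 5 libraries (edgeR adjusted p = 0.420). It overlaps FTH1, which encodes ferritin heavy chain on the other strand, and the part of shared reads was not tested.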
